A study of Mus musculus with 12 samples.

Results

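The Hox genes of mouse colorectal tissue were taken as every gene of the count table whose symbol is Hoxa, Hoxb, Hoxc or Hoxd followed by a number, which gave 38 of the 18514 genes listed. The members were chosen by symbol alone, but the family was selected on earlier results from the same counts, so the contrasts shown here describe these mice and are not independent evidence. Cluster a had 11 of these genes, cluster b 10, cluster c 8 and cluster d 9. In all, 32 of the 38 passed the filter on low counts and were tested, and Hoxb1, Hoxc5, Hoxc9, Hoxc11, Hoxc13 and Hoxd1 did not pass it. The libraries came from male C57BL/6 mice bought at 4 weeks of age, with 1 library per mouse and 3 mice in each of 4 groups. The Ctrl group drank ordinary water and did not swim, and the Ctrl_Swim group drank ordinary water and had daily swimming sessions of at most 90 min. The Model group received 1 injection of the carcinogen azoxymethane (AOM; 10 mg/kg), followed by drinking water with 2% dextran sulfate sodium (DSS), which injures the colon lining, for 7 days in each of 3 cycles. The Model_Swim group received the same AOM/DSS course and swam. By the methods of the paper, swimming began before the start of the experiment and went on to its end. Mice that did not swim were placed in shallow water. The tissue was bulk colorectal tissue, and the labels give no position along the colon for any sample.

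Hox genes encode homeodomain transcription factors that lie in 4 clusters, and the order of the genes along a cluster follows the order in which they are used from the head to the tail end of the embryo. Genes with low paralogue numbers mark anterior positions and those with high numbers, up to 13, mark the most posterior ones. In the gut the same order is kept in the adult, in muscle and connective tissue as well as in the epithelium, so that the 13th paralogues are textbook markers of the distal colon and rectum. Hox proteins bind DNA together with TALE cofactors of the Pbx and Meis families, and Cdx factors and retinoic acid are known regulators of the clusters in the embryo.

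In GRCm38 cluster a lies on chromosome 6, the 10 genes of cluster b span chr11:96194316-96368256, the 8 of cluster c span chr15:102921103-103036852 and the 9 of cluster d span chr2:74668310-74765142. In cluster b, Hoxb13 ends 74.0 kb before the start of Hoxb9, whereas Hoxb9 and Hoxb8 lie 5.31 kb apart. The promoters of 5 members are shown because the results turn on them: Hoxb8 and Hoxb4 were low in the same Model libraries, Hoxd13 and Hoxd12 were nearly absent from another, and Hoxa9 was the member with the lowest p between Model and Ctrl. Each is the RefSeq window of 300 bases, from 250 before to 50 after the start of transcription, in GRCm38.p6 on the coding strand: Hoxb8 is chr11:96281655-96281954 (plus strand), Hoxb4 chr11:96318017-96318316 (plus), Hoxd13 chr2:74667975-74668274 (plus), Hoxd12 chr2:74674763-74675062 (plus) and Hoxa9 chr6:52227321-52227620 (minus). Capitals mark TTTATG or TTTACG, forms of the sequence that Cdx factors bind, and the TATA box letters TATAAA, each on either strand.
Hoxb8: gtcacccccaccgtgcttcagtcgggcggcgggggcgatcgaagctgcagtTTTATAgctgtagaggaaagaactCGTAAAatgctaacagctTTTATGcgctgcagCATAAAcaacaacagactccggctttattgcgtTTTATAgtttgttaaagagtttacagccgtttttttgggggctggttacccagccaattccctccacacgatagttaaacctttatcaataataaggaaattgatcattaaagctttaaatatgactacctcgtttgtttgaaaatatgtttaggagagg
Hoxb4: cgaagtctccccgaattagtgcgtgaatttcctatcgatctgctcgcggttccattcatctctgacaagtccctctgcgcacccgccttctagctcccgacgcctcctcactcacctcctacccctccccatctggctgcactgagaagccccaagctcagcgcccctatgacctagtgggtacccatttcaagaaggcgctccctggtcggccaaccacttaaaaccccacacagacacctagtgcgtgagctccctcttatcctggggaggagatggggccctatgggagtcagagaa
Hoxd13: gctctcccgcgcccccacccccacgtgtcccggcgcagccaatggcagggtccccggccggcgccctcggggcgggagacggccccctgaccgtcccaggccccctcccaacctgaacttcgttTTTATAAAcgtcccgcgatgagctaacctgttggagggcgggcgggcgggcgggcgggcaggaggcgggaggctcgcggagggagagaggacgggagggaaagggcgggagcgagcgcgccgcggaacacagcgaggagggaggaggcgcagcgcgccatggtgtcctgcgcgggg
Hoxd12: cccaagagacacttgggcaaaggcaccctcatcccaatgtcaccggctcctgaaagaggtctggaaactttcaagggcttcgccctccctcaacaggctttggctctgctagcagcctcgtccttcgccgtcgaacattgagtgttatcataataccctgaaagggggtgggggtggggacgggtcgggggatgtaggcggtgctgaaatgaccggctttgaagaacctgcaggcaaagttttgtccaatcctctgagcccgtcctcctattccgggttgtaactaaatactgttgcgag
Hoxa9: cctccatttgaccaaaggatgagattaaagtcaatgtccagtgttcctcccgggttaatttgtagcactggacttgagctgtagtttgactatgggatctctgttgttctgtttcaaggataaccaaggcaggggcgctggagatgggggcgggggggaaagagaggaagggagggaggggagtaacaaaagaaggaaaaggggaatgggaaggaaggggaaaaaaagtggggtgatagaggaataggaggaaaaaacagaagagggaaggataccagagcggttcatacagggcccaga
Hoxb8 held TTTATG at 2 places, TTTACG at 1 and TATAAA at 2. Hoxd13 held TATAAA at 2 places, which overlap each other on opposite strands, and Hoxb4, Hoxd12 and Hoxa9 held none of the 3 motifs. RefSeq windows were at hand for 22 of the 38 genes, 24 windows in all. TTTATG was in 5 of these 24 (20.8%, against 11.9% of 32851 promoters of the same length), TTTACG in 2 (8.33% against 3.03%) and TATAAA in 4 (16.7% against 13.6%). The dinucleotide CG occurred 37 times in the Hoxd13 window, 13 times in Hoxb8 and 4 times in Hoxa9, with a median of 14.5 over the Hox windows and 7 over all promoters. A match of letters is a description and shows no binding.

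Total counts lay between 17256953 and 19451055 per library, so that 3 reads, the most that a count of 0 allows, are 0.154 to 0.174 CPM (counts scaled to a common library size). Intervals made from counts hold counting error alone, without the variation among mice. Several libraries had high levels of genes typical of pancreatic acinar cells, squamous epithelium or skeletal muscle. The origin of this RNA was not tested, and these values stand beside the results they accompany. The summed CPM of 12 pancreatic acinar genes was 49004 in Model 1 and 24075 in Model 3, and 92.3 to 210.7 in the other 10 libraries. The summed CPM of 14 genes of squamous epithelium, such as Krt5, was 1076 in Model 1, 2043 in Model 2, 869 in Ctrl_Swim 4, 1148 in Model_Swim 2 and 1087 in Model_Swim 3, against 104.2 in Ctrl_Swim 2, 170.1 in Model_Swim 1, 10.1 in Ctrl_Swim 3, 34.2 in Model 3 and 13.7 to 20.1 in Ctrl. The summed CPM of 9 skeletal muscle genes was 188.5 in Model 1, 419.0 in Model 2 and 34.7 in Model 3, 41.5 to 81.7 in Ctrl, 199.5, 47.6 and 433.4 in Ctrl_Swim, and 149.4, 309.1 and 31.9 in Model_Swim. Epithelial genes were abundant in every library, with a summed CPM over 10 genes of 12779 to 18445, as were smooth muscle genes, at 6711 to 10327 over 10 genes. In bulk tissue fewer cells of a type and less RNA per cell cannot be told apart.

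Levels are compared between genes in FPKM, which accounts for transcript length. In Ctrl tissue most genes of clusters a, b and d were present, with most of the signal from posterior members. Hoxb1, Hoxd1 and cluster c were near the limit of detection. The most abundant member was Hoxb13, a 13th paralogue of the distal gut, at 74.5 ± 13.1 FPKM (SD, n = 3). It held 32.5% of the summed Hox FPKM. Hoxb9 followed at 26.1 ± 0.228 FPKM and Hoxb6 at 21.1 ± 1.25, and the ranges of these 3 genes over the Ctrl mice did not overlap. Hoxa7 (11.04 ± 0.504), Hoxa13 (10.99 ± 1.03), Hoxb7 (10.4 ± 0.451) and Hoxd13 (9.50 ± 4.04) came next, and their order is not resolved beyond the spread between mice. In all, 11 members had a Ctrl mean of at least 5 FPKM, 14 lay between 1 and 5 FPKM, and 13 were under 1 FPKM. All 8 genes of cluster c were among these 13, led by Hoxc10 at 0.342 ± 0.0583 FPKM.

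**Figure D1:**
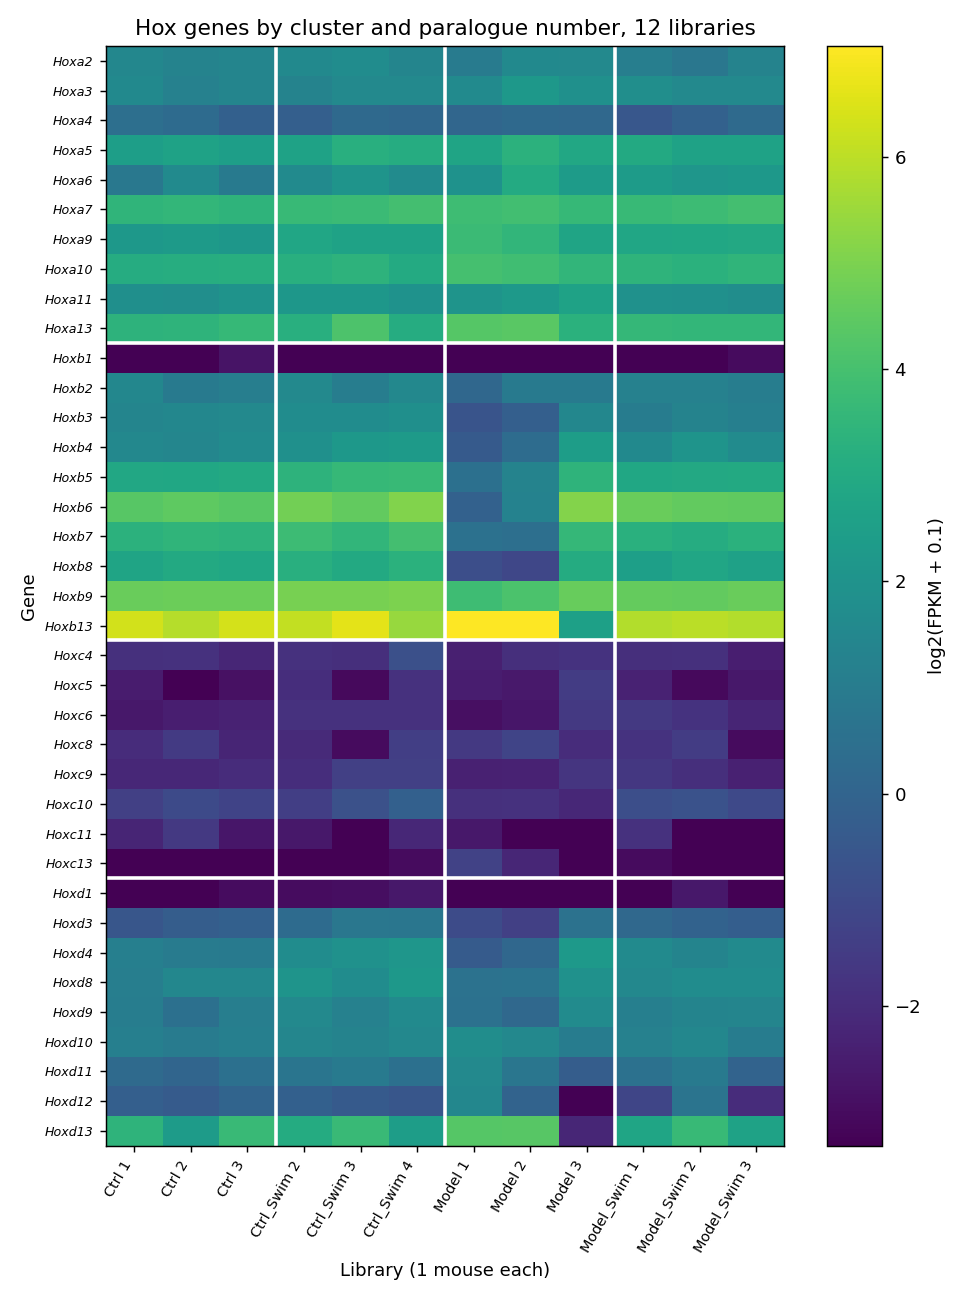
Expression of the Hox genes, all but 1 of the 38 (rows, by cluster and paralogue number) in the 12 libraries (columns, 1 mouse each), as log2(FPKM + 0.1) by colour. Cluster c is dark in every library, Hoxb3 to Hoxb8 are dark in Model 1 and Model 2, and Hoxd12 and Hoxd13 are dark in Model 3.

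Summed over the family, FPKM was 229 ± 15.4 in Ctrl, 265 ± 27.3 in Ctrl_Swim, 247 ± 50.6 in Model and 226 ± 4.99 in Model_Swim. The Ctrl_Swim totals (244.1 to 295.5) were above all Ctrl (212.0 to 242.0) and all Model_Swim totals (222.5 to 231.4), and the Model totals (189.2 to 283.0) overlapped with every group. Paralogues 9 to 13 supplied 58.5% to 65.7% of the Hox FPKM in Ctrl, 47.7% to 63.7% in Ctrl_Swim and 57.9% to 60.2% in Model_Swim. Among the Model mice this share ran from 37.2% to 85.2%. Paralogues 4 to 8 supplied 29.8% to 36.8% in Ctrl and 12.1% to 56.1% in Model. Shares of whole clusters were steadier than shares of paralogue classes. Cluster b supplied 66.5% to 68.1% in Ctrl, 64.96% to 67.2% in Ctrl_Swim, 60.8% to 61.4% in Model_Swim and 56.1% to 56.5% in Model. Cluster a supplied 22.1% to 25.7% in Ctrl, 22.8% to 24.4% in Ctrl_Swim, 26.8% to 29.8% in Model_Swim and 31.1% to 34.9% in Model. These sums are descriptions of the members and were not tested.

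The leading feature of the family was a contrast between the mice of the Model group. From here levels are CPM scaled by TMM (trimmed mean of M values), which compare libraries within a gene. Model 1 and Model 2 had very low Hoxb3 to Hoxb8 and high 13th paralogues. In Model 3, Hoxb4 and Hoxb6 were high, Hoxb13 and Hoxd13 very low, and Hoxb3, Hoxb5, Hoxb7, Hoxb8 and Hoxa13 within the range of the other groups. Hoxb6, a middle paralogue of cluster b, was 37.5, 40.0 and 36.4 CPM in Ctrl and 49.4, 38.5 and 53.7 in Ctrl_Swim. It was 1.39, 3.81 and 58.8 CPM in Model 1, 2 and 3, and 42.7, 39.6 and 38.2 in Model_Swim. Thus a pair of Model libraries lay far below the other 9 libraries and the remaining one lay above all of them. In percent of the Ctrl mean, Hoxb6 was 3.67% in Model 1 (95% exact Poisson interval 2.40% to 5.38%) and 10.05% in Model 2 (7.83% to 12.7%), but 155.0% in Model 3 (145.6% to 164.8%).

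The neighbours of Hoxb6 behaved alike. Hoxb8, at the posterior end of this run of genes, was read 25 times in Model 1 and 19 times in Model 2, against 372 to 438 times in Ctrl, 415 times in Model 3 and 304 to 371 times in Model_Swim. These counts put it at 5.996% and 4.63% of the Ctrl mean in Model 1 and Model 2, and at 106.6% in Model 3. Hoxb7 was at 12.3%, 11.3% and 108.0% in the same order. Toward the anterior end the levels in Model 1 and Model 2 were less far below Ctrl. Hoxb5 stood at 16.5% and 29.5%, Hoxb4 at 21.5% and 38.0%, Hoxb3 at 18.8% and 26.4% and Hoxb2 at 42.7% and 75.3%. In Model 3, Hoxb5 was at 135.0%, Hoxb4 at 175.0%, Hoxb3 at 93.5% and Hoxb2 at 75.3%. Hoxb4, Hoxb5, Hoxb7 and Hoxb8, and likewise Hoxc6, Hoxd11 and Hoxd12, are described in such detail because of their values, outside the rule for named genes.

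**Figure D2:**
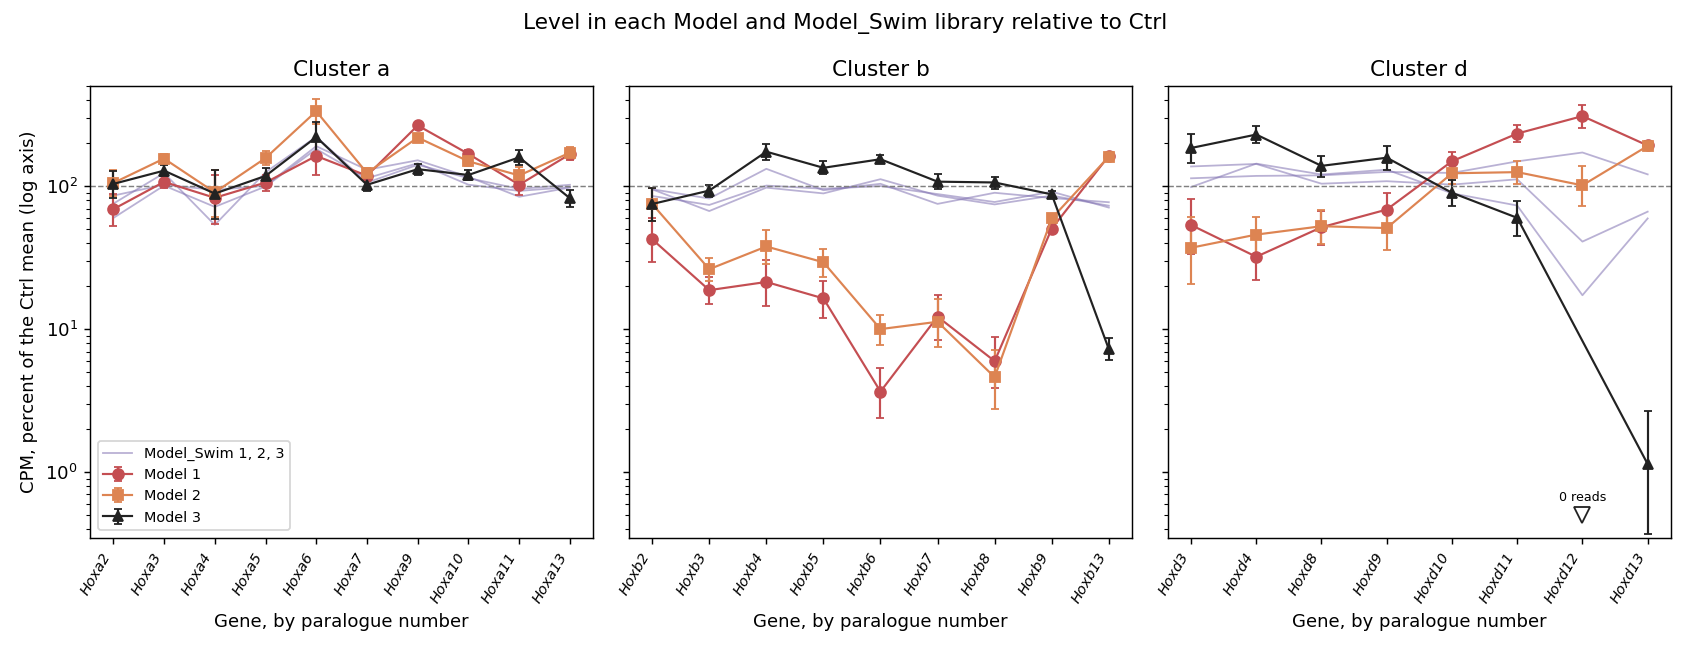
TMM-scaled CPM of the tested genes of clusters a (all but 1), b and d in percent of the Ctrl mean (log axis), by paralogue number. Symbols with 95% Poisson intervals are the 3 Model libraries and thin lines the 3 Model_Swim libraries. Hoxb8 is at 5.996% and 4.63% in Model 1 and Model 2 and at 106.6% in Model 3, and Hoxd13 is at 1.14% in Model 3.

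At the posterior end of cluster b, beyond the gap of 74.0 kb, the Model mice stood the other way round. Hoxb13 was 113.9, 81.8 and 116.4 CPM in Ctrl, 92.0, 124.9 and 53.3 in Ctrl_Swim, and 76.3, 80.7 and 74.0 in Model_Swim. It was 170.2 and 168.0 CPM in Model 1 and Model 2, above all other libraries, and 7.58 CPM in Model 3, below all others. Hoxd13, which also marks the most posterior gut, was 28.3, 13.1 and 34.0 CPM in Ctrl and 20.8, 30.7 and 12.3 in Ctrl_Swim. It was 48.6 and 48.2 CPM in Model 1 and Model 2, 0.287 CPM (5 reads) in Model 3, and 16.7, 30.5 and 15.003 CPM in Model_Swim. Hoxd13 in Model 3 was thus 1.14% of the Ctrl mean (95% exact Poisson interval 0.371% to 2.67%). Hoxa13 was 14.4, 14.6 and 16.9 CPM in Ctrl, 12.4, 22.1 and 10.2 in Ctrl_Swim, 25.7, 26.3 and 12.6 in Model, and 15.7, 15.1 and 15.003 in Model_Swim. It was high in Model 1 and Model 2 as the other 13th paralogues were, but in Model 3 it stayed at 82.6% of the Ctrl mean, within the range of the 9 libraries of the other groups.

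Within cluster d the difference between Model mice changed sign along the cluster. Hoxd4, an anterior member, was 5.91, 5.12 and 4.95 CPM in Ctrl, 8.38, 9.15 and 10.3 in Ctrl_Swim, 1.72, 2.45 and 12.3 in Model, and 7.65, 6.31 and 7.69 in Model_Swim. Hoxd8 was 4.75, 6.16 and 6.16 CPM in Ctrl, 8.99, 6.65 and 8.995 in Ctrl_Swim, 2.95, 2.996 and 7.92 in Model, and 5.94, 6.80 and 6.89 in Model_Swim. For both, Model 1 and Model 2 lay below every other library, and Model 3 was 230.6% of the Ctrl mean for Hoxd4 and 139.3% for Hoxd8. Hoxd3 and Hoxd9 had the same order. From Hoxd10 on, Model 1 was above the Ctrl mean and Model 3 below it: Hoxd11 was at 234.3% in Model 1, 125.9% in Model 2 and 60.3% in Model 3. Hoxd12, next to Hoxd13, gave 34 to 45 reads in Ctrl, 27 to 38 in Ctrl_Swim, 124, 40 and 0 in Model, and 16, 68 and 7 in Model_Swim. A count of 0 in Model 3 allows up to 0.174 CPM. Evx2, a homeobox gene that is transcribed away from Hoxd13 on its posterior side (chr2:74652991-74659557, minus strand), gave 25, 25 and 36 reads in Ctrl, 109 and 73 in Model 1 and Model 2, and 0 in Model 3.

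Placed against the 9 libraries of the other groups, 14 of 32 tested Hox genes were below all 9 in Model 1 (22% of all genes), 14 in Model 2 (22.8%) and 6 in Model 3 (16.8%). Above all 9 were 8 in Model 1 (18.7% of all genes), 10 in Model 2 (21.2%) and 7 in Model 3 (17.7%). Both Model 1 and Model 2 were below, with Model 3 not below, for 12 of 32 (7.24% of all genes): Hoxb3 to Hoxb9, Hoxc6, Hoxd3, Hoxd4, Hoxd8 and Hoxd9. Hoxb13 and Hoxd13 were above in Model 1 and Model 2 and below in Model 3 (0.639% of all genes). Hoxb4, Hoxb6, Hoxd4 and Hoxd9 were below in Model 1 and Model 2 and above in Model 3 (0.614%). Hoxb2 and Hoxc10 were below in all 3 Model libraries (4.62%), and Hoxa10 was above in all 3 (3.24%). These placements describe the mice and carry no test.

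**Figure D3:**
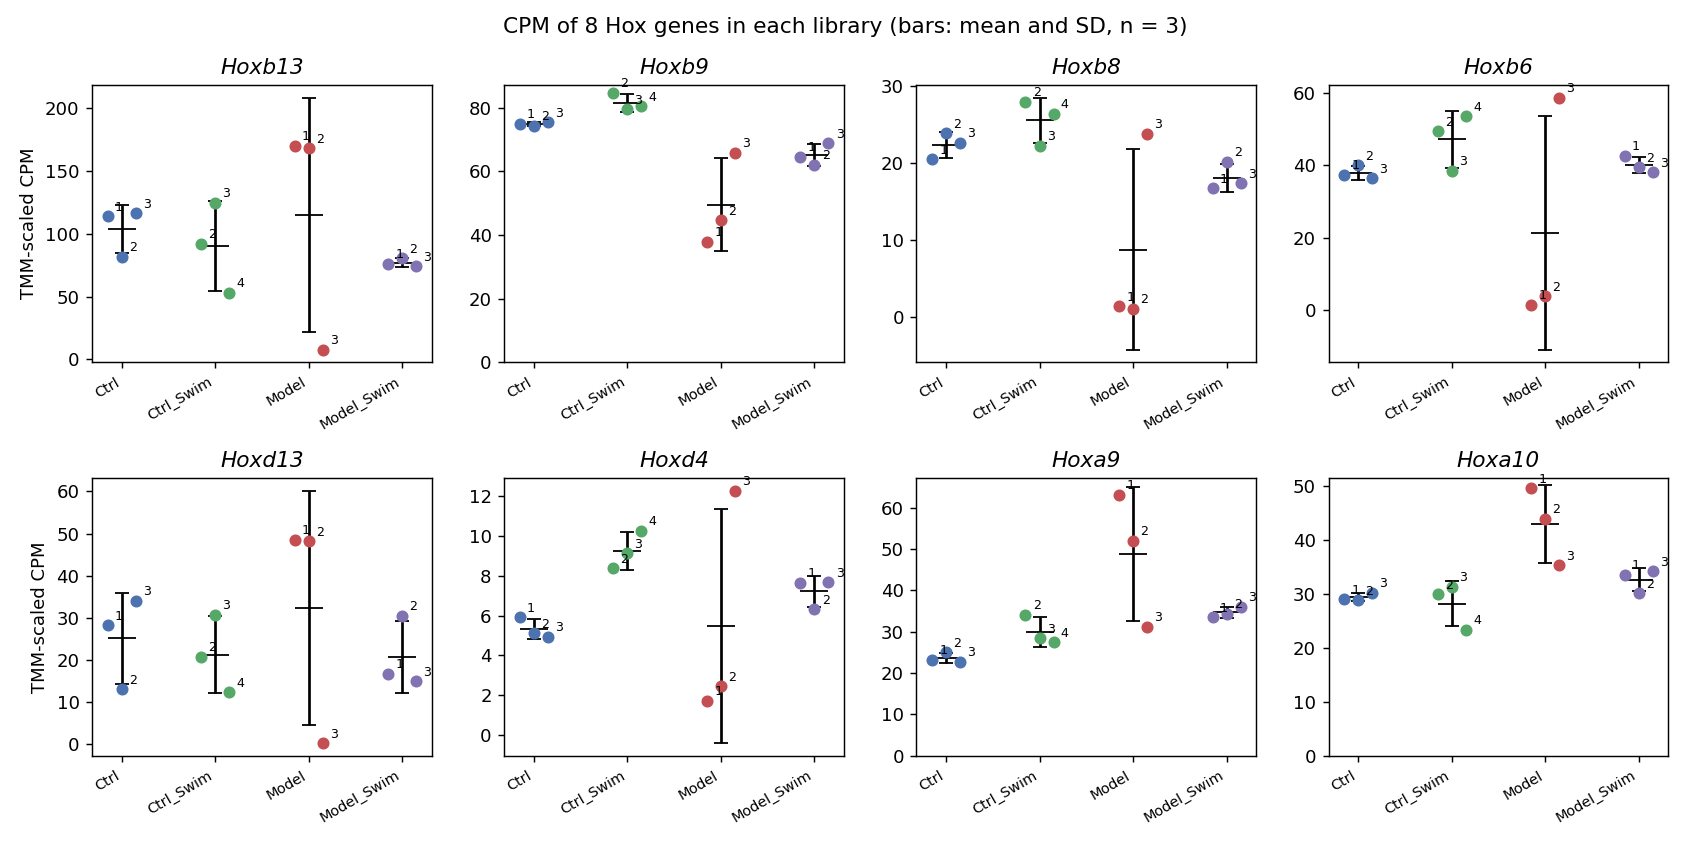
TMM-scaled CPM of 8 Hox genes in each library (points, numbered by replicate), with the mean and SD of each group (n = 3). In Model, replicate 3 lies apart from 1 and 2 for Hoxb13, Hoxb8, Hoxb6, Hoxd13 and Hoxd4, and the SD bar can pass 0; Hoxa9 and Hoxa10 are higher in all 3 Model mice than in Ctrl.

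The spread among the Model mice was wide for the family. The SD of log2 CPM (prior count 2) over the 3 Model mice had a median of 0.56 over the 32 Hox genes, against 0.19 over all 15484 genes tested. In Ctrl the same medians were 0.16 and 0.11, in Ctrl_Swim 0.22 and 0.14, and in Model_Swim 0.16 and 0.12. Of the 32 genes, 15 were in the top 10% of all genes by SD in Model, against 4 in Ctrl, 6 in Ctrl_Swim and 7 in Model_Swim. Hoxd13 had an SD of 4.01 in Model, Hoxd12 3.09, Hoxb6 2.75 and Hoxb13 2.58. Hoxa7, by contrast, was 22.6, 23.8 and 22.2 CPM in Ctrl, 25.04, 24.8 and 27.6 in Ctrl_Swim, 27.2, 28.4 and 23.5 in Model, and 24.3, 26.1 and 29.9 in Model_Swim. Its highest and lowest library FPKM differed 1.45-fold, whereas for Hoxd13 they differed 172-fold.

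Some other regional genes differed between the same Model mice. The summed CPM of 6 genes known to be stronger in distal colon than in proximal colon (Insl5, Scnn1b, Scnn1g, Atp12a, Cldn8 and Fxyd4) was 171.2, 116.4 and 185.5 in Ctrl, 268.2, 379.6 and 48.0 in Model 1, 2 and 3, 71.8 to 123.5 in Ctrl_Swim and 134.6 to 177.8 in Model_Swim. It was highest in Model 2 and lowest in Model 3. Atp12a and Cldn8 were above all Ctrl mice in both Model 1 and Model 2, and the other 4 genes were not. Atp12a, a colonic potassium pump, was 139.7 and 237.9 CPM in Model 1 and Model 2 and 7.92 CPM in Model 3, against 51.0 to 123.2 in Ctrl. Insl5, Scnn1g, Atp12a and Fxyd4 were lowest of all 12 libraries in Model 3, Fxyd4 with no read. Scnn1b did not share this order, at 7.24, 3.70 and 7.12 CPM in Model. Of these 6 genes, 1 (Cldn8) was called as higher in the test of Model against Ctrl, where 16.5% of all genes were. The squamous and the skeletal muscle genes also separated Model 1 and Model 2 from Model 3. In Ctrl_Swim 4, Model_Swim 2 and Model_Swim 3 the squamous sum was 869 to 1148 CPM and Hoxb6 was 38.2 to 53.7 CPM. The acinar genes followed another order, high in Model 1 and Model 3 and at 184 CPM in Model 2, where Hoxb6 was low. The summed CPM of 9 genes of enteric neurons and glia was 51.1, 73.0 and 83.6 in Model 1, 2 and 3, against 85.0 to 98.8 in Ctrl. Of these 9, 2 were called as lower between Model and Ctrl, where 16.2% of all genes were. The part of these markers in the Hox values was not tested, and the position of the sampled tissue and the state of its cells cannot be told apart here.

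**Figure D4:**
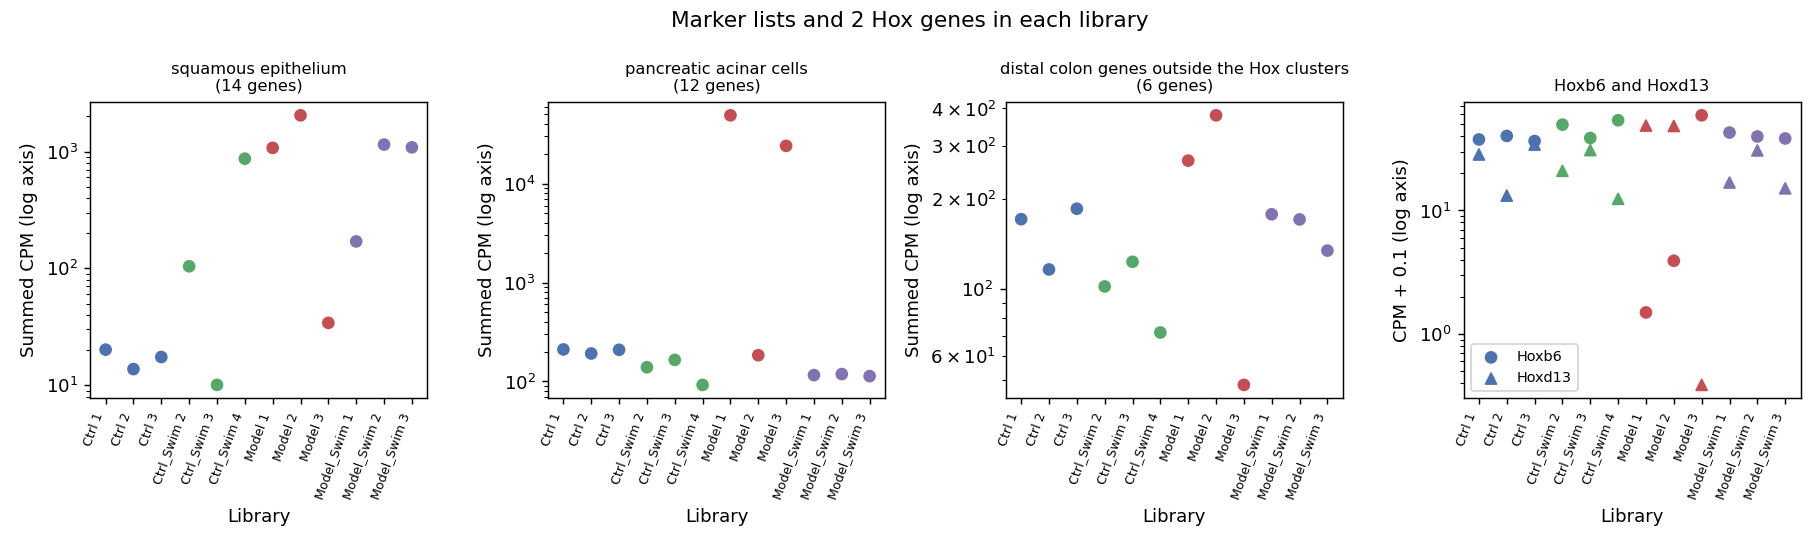
Summed TMM-scaled CPM of 3 marker lists and CPM + 0.1 of Hoxb6 (circles) and Hoxd13 (triangles) in each of the 12 libraries, on log axes, coloured by group. The distal colon sum is 268.2 and 379.6 in Model 1 and Model 2 and 48.0 in Model 3, while the squamous sum exceeds 800 in 5 libraries of 3 groups.

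The comparison of Model with Ctrl asks what AOM/DSS did to the family in mice that did not swim. Tests used edgeR's quasi-likelihood fit of all 12 libraries, with p-values adjusted by Benjamini-Hochberg over 15484 genes. Called means an adjusted p under 0.05, and 5 of the 32 Hox genes (3 higher, 2 lower) were called, where 32.7% of all genes tested were. Of the 32, 3 were also past a 2-fold change, near the 7.43% of all genes. The groups did not overlap for 9 of the 32, against 44.2% of all genes. The median log2 fold change was 0.39 over 11 genes of cluster a, -0.73 over 9 of cluster b, 0.04 over 4 of cluster c and 0.16 over 8 of cluster d, against 0.01 over all genes. These medians moved with single Model mice. That of cluster b was -2.11 without Model 3 and -0.39 without Model 1, and those of clusters c and d turned negative without Model 3.

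Hoxa9, a posterior paralogue of cluster a, rose. It was 23.2, 24.97 and 22.8 CPM in Ctrl, 34.1, 28.5 and 27.4 in Ctrl_Swim, 63.2, 52.0 and 31.2 in Model, and 33.5, 34.4 and 36.0 in Model_Swim. All 3 Model mice were above the Ctrl mice, and the log2 fold change was 1.04 ± 0.20 (SE; adjusted p = 0.0035). Hoxa10, its neighbour, was 29.0, 28.8 and 30.2 CPM in Ctrl, 29.9, 31.3 and 23.4 in Ctrl_Swim, 49.5, 43.9 and 35.2 in Model, and 33.5, 30.1 and 34.2 in Model_Swim. It rose by a log2 fold change of 0.55 ± 0.13 (adjusted p = 0.0095), with every Model mouse above every other mouse of the study.

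Hoxa6, a middle paralogue, was 1.27, 2.24 and 1.32 CPM in Ctrl, 2.14, 2.71 and 2.04 in Ctrl_Swim, 2.63, 5.39 and 3.56 in Model, and 3.58, 2.94 and 3.07 in Model_Swim. It rose between Ctrl and Model by a log2 fold change of 1.26 ± 0.31 (adjusted p = 0.012), and Model and Ctrl did not overlap. With all 12 libraries edgeR called no other member of cluster a, and the log2 fold change was -0.19 for Hoxa4 and 0.50 for Hoxa13. Others were called as higher by edgeR with 1 mouse left out. Without Model 3 these were Hoxa7 (0.29, adjusted p = 0.038) and Hoxa13 (0.78, adjusted p = 0.032). Without Model 1 they were Hoxa3 (0.53, adjusted p = 0.017) and Hoxa11 (0.49, adjusted p = 0.036). DESeq2 also called Hoxa3 as higher (0.40, adjusted p = 0.042; by edgeR 0.39, adjusted p = 0.060), and limma on FPKM with a filter called Hoxa3, Hoxa7 and Hoxa11 as higher. The 3 calls of cluster a were lost when the 5 libraries with over 1000 Krt5 reads, Model 1 and Model 2 among them, were left out (chosen after seeing the data): the log2 fold changes were then 1.13, 0.39 and 0.26 for Hoxa6, Hoxa9 and Hoxa10 (adjusted p = 0.083, 0.059 and 0.097). Over all alternatives the log2 fold changes ran from 0.96 to 1.72, from 0.39 to 1.29 and from 0.26 to 0.68. Markers of other cell types rose in the same comparison, where 16.5% of all genes did: 12 of 14 squamous genes, 12 of 12 acinar genes, 8 of 10 fibroblast and matrix genes (summed CPM 1822 to 1982 in Ctrl and 3070 to 3191 in Model), 7 of 8 B cell genes (39.4 to 83.5 and 158.7 to 189.4) and 5 of 7 T cell genes (28.6 to 33.0 and 60.04 to 88.5). Their part in the higher levels of Hoxa6, Hoxa9 and Hoxa10 was not tested.

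Hoxb9, the most posterior gene of the main run of cluster b, fell. It was 74.9, 74.2 and 75.4 CPM in Ctrl, 84.6, 79.4 and 80.5 in Ctrl_Swim, 37.9, 44.7 and 65.8 in Model, and 64.5, 62.1 and 68.8 in Model_Swim. Every Model mouse was below the Ctrl mice, Model 3 less so, and the log2 fold change was -0.60 ± 0.15 (adjusted p = 0.013). The call was lost when only the Model and Ctrl libraries were fitted (-0.59, adjusted p = 0.057) and when the libraries with over 1000 Krt5 reads were left out (-0.19, adjusted p = 0.13). Hoxc10, at 11, 15 and 12 reads in Ctrl, 10, 17 and 28 in Ctrl_Swim, 6, 6 and 4 in Model, and 16, 18 and 14 in Model_Swim, fell by 1.23 on the log2 scale (SE 0.43, adjusted p = 0.049). This call rested on few reads and was lost in 19 of 22 alternatives.

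The members with the widest contrast between Model mice were not called by edgeR. Hoxb8 had a log2 fold change of -1.36 ± 0.81 (adjusted p = 0.22), Hoxb6 of -0.84 ± 0.86 (adjusted p = 0.48), Hoxb13 of 0.15 ± 0.72 (adjusted p = 0.89) and Hoxd13 of 0.37 ± 0.91 (adjusted p = 0.78). Their 95% intervals on the log2 scale were wide, from -1.43 to 1.73 for Hoxb13, so that a change of over 2-fold in either direction lies within it. By limma on log2(FPKM + 1) with a filter Hoxb8 and Hoxb3 were called as lower (adjusted p = 0.047 and 0.039), and DESeq2 gave no p for Hoxb6, Hoxb7 and Hoxb8 in any comparison, because it set them aside as holding an outlying count. Without Model 3, 15 Hox genes were called, 5 higher and 10 lower, where 35.8% of all genes were. Hoxb8 then had a log2 fold change of -4.21 (adjusted p = 8.6e-07), Hoxb7 of -3.07 (adjusted p = 3.7e-06), Hoxb6 of -3.86 (adjusted p = 2.0e-05) and Hoxd4 of -1.34 (adjusted p = 0.00091), while Hoxb13 (0.71, adjusted p = 0.056) and Hoxd13 (0.96, adjusted p = 0.10) stayed uncalled. Without Model 1 the number was 6 (32.2% of all genes) and without Model 2 it was 4 (23% of all genes). The number of calls thus moved with which of the 3 Model mice were included, by over 1.5 times for Model 3 only. The log2 fold changes moved with the other Model mice as well. Without Model 1, Hoxb13 was at -0.22, Hoxd13 at -0.03 and Hoxb6 at -0.28. Without Model 2 the same genes were at -0.19, -0.001 and -0.33.

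**Figure D5:**
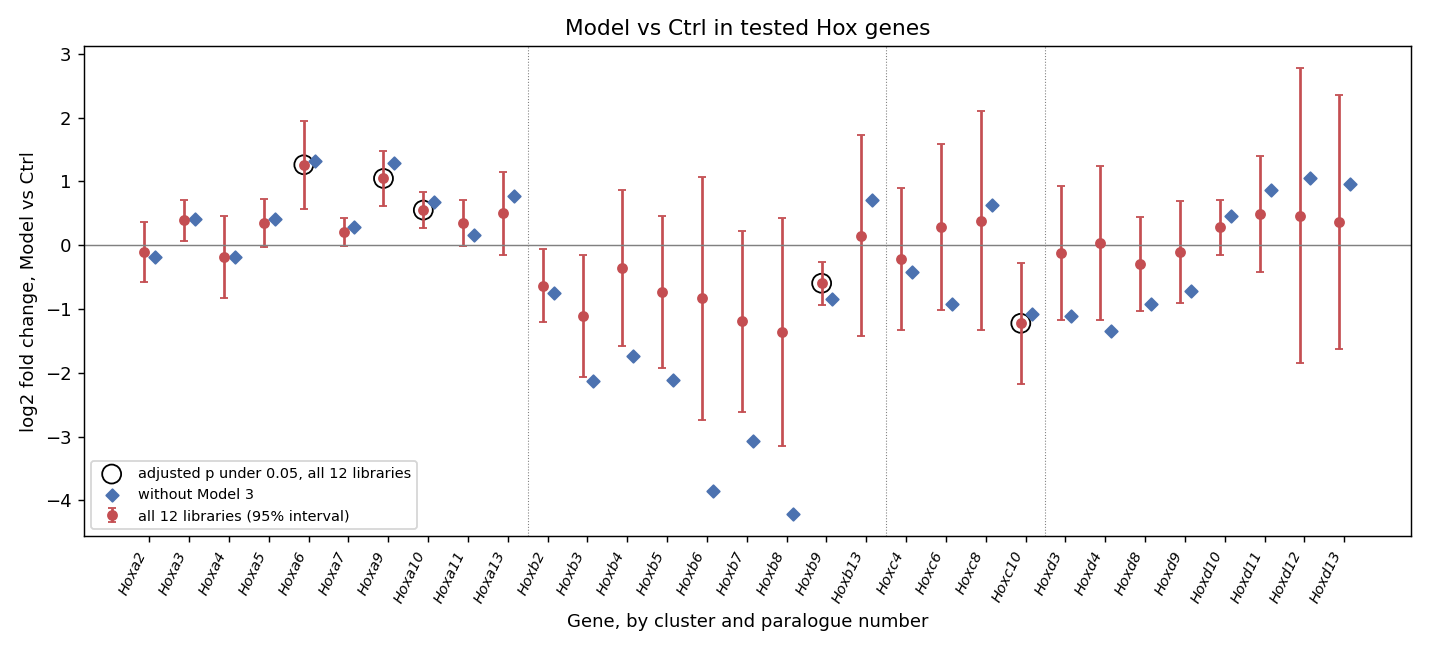
Log2 fold change of Model vs Ctrl in the tested Hox genes, all but 1 of the 32, by cluster (dotted lines) and paralogue number. Circles with 95% intervals use all 12 libraries, rings mark adjusted p under 0.05 and diamonds leave out Model 3. Hoxb8 moves from -1.36 to -4.21 without that library, while Hoxa9 and Hoxa10 stay above 0.

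Cluster c was close to the detection limit. Hoxc4 gave 15, 15 and 10 reads in Ctrl, 15, 13 and 39 in Ctrl_Swim, 7, 13 and 14 in Model, and 13, 14 and 7 in Model_Swim. Hoxc8 gave 7, 11 and 5 reads in Ctrl, 6, 1 and 12 in Ctrl_Swim, 10, 14 and 6 in Model, and 8, 11 and 1 in Model_Swim. Neither gene separated the groups. Hoxc6 was 0.375 and 0.599 CPM in Model 1 and Model 2 and 2.47 in Model 3, against 0.718 to 1.15 in Ctrl, the same order as the anterior genes of clusters b and d. Of the genes that did not pass the filter, Hoxb1 had at most 2 reads, Hoxd1 at most 2 and Hoxc11 at most 4 in any library.

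The comparison of Model_Swim with Model asks how swimming altered the family in AOM/DSS mice. By edgeR 0 Hox genes were called (0.071% of all genes were, 0.0646% higher and 0.00646% lower), by DESeq2 0 of 29 with an adjusted p (2.33%), and by edgeR 5 of 32 had an unadjusted p under 0.05, near the share of all genes (13.6%). The Model_Swim mice stood close together for Hoxb13 (74.0 to 80.7 CPM) and Hoxb6 (38.2 to 42.7 CPM), but not for the genes at the posterior end of cluster d. Model_Swim was not tested against Ctrl. Of the genes that divided the Model mice, Hoxb6 was at 100.5% to 112.4% of the Ctrl mean in Model_Swim, Hoxb8 at 74.9% to 90.3%, Hoxb13 at 71.1% to 77.5% and Hoxd4 at 118.5% to 144.3%. Hoxb8 and Hoxb13 were below all Ctrl mice in every Model_Swim mouse, and Hoxd4 was above all Ctrl mice. The share of all genes without overlap was not computed for this pair of groups. In the pairs that were tested it was 16.9% to 44.2%, so these placements are a description only. Hoxd13 ran from 59.7% to 121.4% (304, 561 and 283 reads), Hoxd12 from 17.3% to 172.7% and Hoxd11 from 73.5% to 149.7% (97, 131 and 66 reads), and these 3 were among the 7 members in the top 10% of all genes by SD in Model_Swim. Hoxa10 had a log2 fold change of -0.39 ± 0.13 (adjusted p = 0.25) and Hoxc10 of 1.54 ± 0.43 (adjusted p = 0.19), and the groups did not overlap for either. In all, 4 members did not overlap, 2 higher and 2 lower, against 16.9% of all genes (8.32% higher and 8.57% lower). Without Model 3, 15 were called, 12 higher and 3 lower in Model_Swim, among them Hoxb3 to Hoxb9 higher and Hoxa9, Hoxa10 and Hoxb13 lower, where 5.62% of all genes were called.

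Swimming alone, Ctrl_Swim against Ctrl, called 0 of 32 by edgeR (0.969% of all genes, 0.168% higher and 0.801% lower; 0.168% past a 2-fold change), 0 of 22 by DESeq2 (4.92%) and 0 by edgeR at an unadjusted p under 0.05 (17.6% of all genes). The groups did not overlap for 10 members, all of them higher in Ctrl_Swim, against 27.4% of all genes in either direction and 12.6% higher. These were Hoxa7, Hoxa9, Hoxb3, Hoxb4, Hoxb5, Hoxb9, Hoxc6, Hoxd3, Hoxd4 and Hoxd8, none of them a gene numbered over 9. Of 9 genes of enteric neurons and glia, 8 were also higher in Ctrl_Swim without overlap, and 0 were called. Their summed CPM was 85.0 to 98.8 in Ctrl and 114.4 to 133.7 in Ctrl_Swim. The part of these cells in the higher Hox levels was not tested. The log2 fold change was 0.80 ± 0.55 for Hoxd4 (adjusted p = 0.46) and 0.53 ± 0.53 for Hoxb5 (adjusted p = 0.63). The SE of this fit carries the spread of the Model mice, since all groups share 1 estimate. With only Ctrl and Ctrl_Swim fitted, Hoxb5 and Hoxd4 were called as higher, 2 of 30 tested, where 2.49% of all genes were called. That fit also changed which genes passed the filter, and the cause of the gained calls was not tested. In Ctrl_Swim 4, the library of this group with the highest squamous sum, Hoxb13 was at 51.2% and Hoxd13 at 49.0% of the Ctrl mean, the lowest of the group.

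Among swimming mice, Model_Swim against Ctrl_Swim, edgeR called 0 of 32 (5.18% of all genes, 3.49% higher and 1.69% lower) and DESeq2 0 of 27 (10.6%), and by edgeR 1 had an unadjusted p under 0.05 (22.4% of all genes), which was Hoxa2. The groups did not overlap for 10 members, against 32.4% of all genes. Hoxb3, Hoxb5, Hoxb7, Hoxb8, Hoxb9, Hoxd3, Hoxd4 and Hoxa2 were lower in every Model_Swim mouse than in every Ctrl_Swim mouse, and Hoxa3 and Hoxa6 were higher. Of the 9 genes of enteric neurons and glia, 7 were also lower without overlap, and 0 were called. Their summed CPM was 92.6 to 94.4 in Model_Swim and 114.4 to 133.7 in Ctrl_Swim, and their part in the Hox values was not tested. Hoxb9 had a log2 fold change of -0.32 ± 0.15 (adjusted p = 0.24). With only these 2 groups fitted, Hoxb3, Hoxb5, Hoxb8 and Hoxb9 were called as lower, 4 of 31 tested, where 8.59% of all genes were called. This comparison and that of Ctrl_Swim with Ctrl share the Ctrl_Swim mice. The interaction of swimming with AOM/DSS called 0 of 32 by edgeR (0% of all genes) and 0 of 25 by DESeq2 (5.52%), and by edgeR 3 had an unadjusted p under 0.05, against 19% of all genes. Without Model 3 the interaction called 8, where 4.57% of all genes were called.

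Regulators and partners of Hox genes are counted here beside the 16.5% of all genes that rose and the 16.2% that fell between Ctrl and Model (32.7% in all). Of 11 TALE cofactors, 2 rose and 0 fell, a share below that of all genes called: Meis2, which forms complexes with Hox proteins, by a log2 fold change of 0.78 ± 0.13 (adjusted p = 0.0017) and Meis1 by 0.53 ± 0.19 (adjusted p = 0.049). Cdx1 and Cdx2, the caudal factors of the intestinal epithelium, fell by 0.70 and 0.87 on the log2 scale (adjusted p = 0.00041 and 0.0034). Cdx2 was 131.4, 151.8 and 227.0 CPM in Model against 298.6 to 332.1 in Ctrl, and 7 of 10 epithelial genes fell as well. Pdx1, a ParaHox gene and pancreas factor, rose by 1.94 ± 0.40 (adjusted p = 0.0053), at 1.45, 1.53 and 0.861 CPM in Model against 0.221 to 0.491 in Ctrl.

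Of 16 tested genes of retinoic acid synthesis, receptors and breakdown, 8 rose and 2 fell, against 16.5% and 16.2% of all genes, with a median log2 fold change of 0.70. Stra6, the receptor that takes up retinol, rose by 3.96 ± 0.82 (adjusted p = 0.0053), at 78.3, 36.7 and 4.94 CPM in Model against 1.42 to 3.92 in Ctrl. It was 16.8, 33.7 and 30.01 CPM in Model_Swim, and Hoxb6 was not low in these libraries. The squamous sum was high in the latter pair of them. How Stra6, Hoxb6 and the squamous genes relate was not tested. The most abundant gene of the list in CPM, Aldh1a1, which makes retinoic acid, fell by 1.35 on the log2 scale (adjusted p = 0.045), at 48.3, 69.1 and 255.8 CPM in Model against 283.1 to 347.8 in Ctrl. The summed CPM of the list was lower in Model (525.6 to 611.9) than in Ctrl (645.2 to 694.0), opposite to its median log2 fold change. Rxra, a nuclear receptor partner, fell by 0.55 on the log2 scale (adjusted p = 0.0025). Of 21 Polycomb and trithorax genes, which keep Hox clusters silent or active, 5 rose and 0 fell, fewer than the 32.7% of all genes called, among them Kmt2a by 0.74 ± 0.12 (adjusted p = 0.0018).

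Of 9 genes that flank the clusters, 3 rose and 1 fell, where 32.7% of all genes were called. Evx1, beyond the posterior end of cluster a, was 2.15, 1.85 and 2.58 CPM in Ctrl, 29.97, 8.34 and 3.67 in Model and 8.01 to 9.90 in Model_Swim, and rose by 2.67 ± 0.63 between Ctrl and Model (adjusted p = 0.0090). Of 11 colon and hindgut transcription factors, 6 fell and 0 rose, Cdx1 and Cdx2 among them, where 16.2% of all genes fell. Between Ctrl_Swim and Model_Swim, Cdx1 fell, where 1.69% of all genes did, and Stra6 rose, where 3.49% did. Between Ctrl and Ctrl_Swim 0 of these regulators were called, where 0.969% of all genes were.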

How the data were processed

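RNA of colorectal tissue from 12 mice was sequenced, 1 library per mouse. After trimming with Trimmomatic, the authors mapped reads to GRCm38.p6 (HISAT2) and deposited raw counts per gene from HTSeq-count and FPKM values from Cufflinks, both for 18514 symbols. The kit was stranded, but the strand setting of the counting is not given in the sources used here. Reads of Hoxb3 and its antisense gene may therefore not be told apart. Hoxd3 and Hoxd4, and likewise Hoxc5 and Hoxc10, share exon bases on the same strand, where no strand setting separates their reads.

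From the deposited counts, edgeR 4.0.16 (R 4.3.3) fitted all 4 groups after TMM scaling and filterByExpr (minimum count 10, 15484 genes), without covariates. The alternatives were DESeq2 1.42.0 (the study's tool), DESeq2's size factors, no filter and a minimum count of 30, fits of the compared groups alone, a block for replicate numbers, a 2-fold limit, limma 3.58.1 on log2(FPKM + 1) with and without a filter at a mean of 0.5 and on log2(FPKM + 0.1), a term for the trace level of pancreatic genes, and each mouse left out. Leaving out Model 1 and Model 3 together, or the libraries with over 1000 Krt5 reads, was added after seeing the data. The intervals of fold changes use the t distribution of the fit. Counts were also simulated with 1 spread for all genes, and 200 genes of mean count over 30 were changed 4-fold between Model and Ctrl. There edgeR recovered 200 among 15398 genes, with 8 others called. All simulated mice of a group had the same mean, so the simulation does not show what the fit detects where the mice of a group divide, as in Model.

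The members and the gene lists were chosen with earlier results of these data known, so the adjusted p-values describe the members and are not independent support. By the rule for named genes, every library is given for members called in any comparison and for the 3 with the highest mean FPKM of each cluster. Of other lists, only called genes or the most abundant were to be named, and Evx2, Atp12a, Insl5, Scnn1b, Scnn1g and Fxyd4 were added after their values were seen. Gene positions come from the GENCODE annotation of GRCm38 and promoters from RefSeq. Values of 1 member and of 1 hindgut factor are counted in the totals but not reported here.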

Additional observations from a re-analysis of the deposited data

Results flagged for a closer look

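Among the members that did not pass the filter on low counts, some libraries held more reads than the Ctrl mice did. Hoxc13, the 13th paralogue of cluster c, had 14 reads in Model 1 and 5 in Model 2, and 0 in Ctrl and in Model 3. Hoxc5 had 8 reads in Ctrl_Swim 2, 9 in Ctrl_Swim 4, 12 in Model 3 and 5 in Model_Swim 1, against at most 4 in Ctrl. Hoxc9 had 9 reads in Ctrl_Swim 3, 9 in Ctrl_Swim 4, 6 in Model 3 and 7 in Model_Swim 1, against at most 5 in Ctrl. None of these differences was tested.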

How the results depend on the processing

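Between Model and Ctrl the number of Hox genes called was 5 (32.7% of all genes), and 3 with only the groups compared (22.5%), 3 with the 2-fold limit (7.43%), 9 of 27 by limma on log2(FPKM + 1) (32.6%) and 10 of 27 on log2(FPKM + 0.1) (33.3%), with a filter in both. With 1 mouse left out it ran from 4 to 15 between Model and Ctrl, from 0 to 15 between Model_Swim and Model, from 0 to 1 between Ctrl_Swim and Ctrl, from 0 to 5 between Model_Swim and Ctrl_Swim and from 0 to 8 for the interaction. Each upper end came from leaving out Model 3, where 35.8%, 5.62%, 1.65%, 9.3% and 4.57% of all genes were called. With only the groups compared, 2 were called between Ctrl_Swim and Ctrl (2.49% of all genes) and 4 between Model_Swim and Ctrl_Swim (8.59%). Without Model 1 and Model 3 together, where the lone Model library is assumed to vary like the others, the numbers were 16, 11, 2, 5 and 7 of 32 in the same order (32.7%, 3.57%, 3.79%, 13.5% and 5.75% of all genes), and without the libraries of over 1000 Krt5 reads they were 7, 2, 0, 1 and 1 of 33 (21.9%, 0.68%, 1.87%, 2.35% and 0.52%). That setting leaves 1 Model library (Model 3) and 1 Model_Swim library (Model_Swim 1), which are assumed to vary like the other groups, so its calls compare single libraries.

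Some genes that were not called with all libraries were called in the other direction when libraries were left out, and the cause was not tested. Between Model and Ctrl, Hoxd4 was 0.04 with all libraries and 0.47 without Model 1, and went to -1.34 without Model 3 and to -1.14 without Model 1 and Model 3. Without the libraries of over 1000 Krt5 reads, Hoxb13 went to -3.79, Hoxd13 to -6.43 and Hoxd12 to -8.29, a fitted value against a count of 0 that is no bound, while Hoxb4 went to 0.80, Hoxb6 to 0.62 and Hoxd4 to 1.19 (adjusted p = 0.0051), so that Hoxd4 was called in either direction. There Model_Swim vs Model, Model_Swim 1 against Model 3, was 3.33 for Hoxb13 and 5.83 for Hoxd13, and the interaction was 3.27 for Hoxb13. Hoxa6, Hoxa9 and Hoxa10 kept their direction in all 25 alternatives each.

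Without Hoxb13 the share of paralogues 9 to 13 in FPKM was 45.2% in Ctrl, 41.0% in Ctrl_Swim, 56.5% in Model and 44.0% in Model_Swim. With Hoxb13 it was 62.9%, 56.2%, 67.6% and 58.7% in the same order, and from CPM it was 57.0% in Model_Swim. The median residual SD of the Hox genes over all groups was 0.50, and 0.20 without Model 1 and Model 3. The replicate numbers did not pair the mice (correlations from -0.26 to 0.56 over 15 pairs of same-numbered libraries), and with the replicate number as a block 4 Hox genes were called between Model and Ctrl (27.9% of all genes) and 0 elsewhere (0% to 0.258%). With 17256953 to 19451055 counts per library, counting error is wide relative to the level for the genes of cluster c.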
